A study of Mus musculus with 15 samples.

Results

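Of the 55450 genes counted in mouse gastrocnemius, 10 encode the PGC-1 coactivators and the transcription factors that act with them in mitochondrial biogenesis, and these 10 were taken by gene symbol and matched to their Ensembl identifiers. They are the coactivators Ppargc1a, Ppargc1b and Pprc1, the estrogen-related receptors Esrra, Esrrb and Esrrg, the nuclear respiratory factors Nrf1 and Gabpa, and the mitochondrial DNA transcription factors Tfam and Tfb2m. All 10 passed the filter on low counts and were among the 16920 genes tested. All 15 animals were C57BL/6JN females past the age of 17 months. Low mice, labelled robust, carried at most 1 positive frailty marker, and High mice, labelled frail, carried at least 2. Frailty group was assigned after the experiment from treadmill distance, grip strength, rotarod latency, body weight and a frailty index. Run mice had run downhill on 2 consecutive days down a slope of 22 degrees at 13 m/min, and their muscle was taken 24 h after the last bout, while Control mice did not run. The groups held 4 mice for Low Run and for High Run, 4 for Low Control and 3 for High Control, and each library came from 1 mouse. The comparisons ask whether running changed these regulators in Low or in High mice, whether the change differed with frailty, and whether the frailty groups differed at rest or after running.

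PGC-1α (Ppargc1a), PGC-1β (Ppargc1b) and PRC (Pprc1) are coactivators, proteins that bind no DNA themselves and are carried to promoters by transcription factors. In skeletal muscle PGC-1α is known as a gene that contraction induces within hours, through calcium, AMPK and p38 signalling. The estrogen-related receptors, nuclear respiratory factor 1 (Nrf1) and GA-binding protein (whose DNA-binding subunit is Gabpa) then raise nuclear genes of the respiratory chain, and also Tfam and Tfb2m, which act on the mitochondrial genome itself. Nrf1 here is nuclear respiratory factor 1, not the stress factor Nfe2l1 that shares its alias. Counts per gene cannot tell the transcripts of Ppargc1a from one another, although its exercise-induced forms start at another promoter. In bulk muscle, fewer cells of a type and less RNA per cell cannot be told apart.

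RefSeq promoters on GRCm38.p6, from 250 bases before to 50 bases after each start, were found by symbol for 9 of the 10 genes, with 14 starts in all. Ppargc1b had no entry. Shown here are the 120 bases before the start, 5′ to 3′ on the gene's strand, of the coactivator at the head of the pathway, of Pprc1 and Gabpa, whose levels moved together, of Esrra, the most abundant regulator, and of Tfam and Tfb2m, which are held to be downstream. Capitals mark matches, on either strand, to the nuclear respiratory factor 1 core CGCATGC, the ETS core CGGAAG that GABP binds, the estrogen-related receptor element AAGGTCA and the cyclic AMP response core TGACG.
Ppargc1a, chr5:51567726-51567845, minus strand: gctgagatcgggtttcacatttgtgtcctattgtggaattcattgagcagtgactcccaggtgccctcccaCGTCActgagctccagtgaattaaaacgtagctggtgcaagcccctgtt
Pprc1, chr19:46056419-46056538, plus strand: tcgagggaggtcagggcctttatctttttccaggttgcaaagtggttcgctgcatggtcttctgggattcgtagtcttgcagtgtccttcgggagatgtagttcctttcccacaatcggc
Esrra, chr19:6921809-6921928, minus strand: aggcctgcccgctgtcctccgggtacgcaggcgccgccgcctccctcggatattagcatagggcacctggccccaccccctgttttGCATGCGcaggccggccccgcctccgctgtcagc
Gabpa, chr16:84835004-84835123, plus strand: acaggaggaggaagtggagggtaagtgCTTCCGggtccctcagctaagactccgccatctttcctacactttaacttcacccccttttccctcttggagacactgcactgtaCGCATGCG
Tfam, chr10:71238045-71238164, minus strand: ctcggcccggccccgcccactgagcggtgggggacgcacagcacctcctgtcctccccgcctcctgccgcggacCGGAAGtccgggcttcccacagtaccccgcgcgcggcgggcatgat
Tfb2m, chr1:179546277-179546396, minus strand: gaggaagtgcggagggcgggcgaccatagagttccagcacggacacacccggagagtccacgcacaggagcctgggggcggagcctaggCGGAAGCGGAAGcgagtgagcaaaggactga

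The nuclear respiratory factor 1 core was found in a promoter of 4 regulators, Esrra, Esrrg, Gabpa and Tfb2m, and is held by 3.58% of all 32851 listed promoters of this length. In Tfb2m it lay 13 bases after the start, outside the stretch shown, and in Gabpa and Tfb2m the matches on the plus and minus strands overlapped each other. The ETS core was found in Gabpa, Tfam and Tfb2m and is held by 16.9% of promoters, and the cyclic AMP core in Ppargc1a and Esrrb, held by 20.8%. The receptor element, held by 4.72% of promoters, matched in 0 of the 9 genes, which says only that these letters are not in these windows. Genes were counted for a match at any of their starts, 14 in all, while the shares are per promoter. The counts and shares are therefore not like measures. The 300-base promoter of Ppargc1a had a GC content of 48.7%, against 70.3% for Tfam. A match is a stretch of letters and was not measured as a bound site.

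Per length, Esrra was the most abundant of the 10 regulators and Nrf1 the least. The mean over the 15 mice was 25.0 ± 5.20 RPKM (SD; reads per kilobase of exon, scaled to library size) for Esrra, 11.0 ± 0.999 for Tfam and 7.40 ± 0.695 for Tfb2m. Each of these lay below the one before it in all 15 mice. Ppargc1a followed at 5.95 ± 1.52 RPKM, below Tfb2m in 13 of 15 mice, and its neighbour Gabpa at 5.66 ± 1.39 was below Ppargc1a in only 9, so these neighbours did not differ beyond their spread. Pprc1 at 4.40 ± 2.01 RPKM and Esrrg at 3.92 ± 1.17 overlapped in the same way, with Esrrg the lower in 6 of 15 mice. Ppargc1b was at 3.19 ± 0.792 RPKM. Esrrb at 1.76 ± 0.432 and Nrf1 at 1.60 ± 0.445 RPKM ended the order, with Nrf1 the lower in 8 mice.

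**Figure D1:**
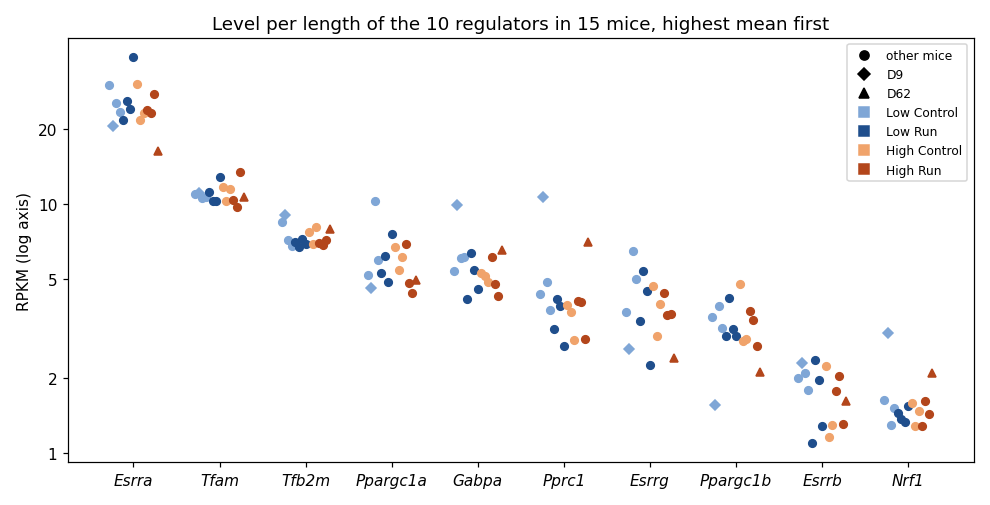
Level per length (RPKM, log axis) of the 10 regulators, 1 point per mouse, genes in order of their mean over 15 mice, colours for the 4 groups and separate symbols for mice D9 and D62. Esrra lies above every other regulator in all mice, while Ppargc1a and Gabpa overlap.

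The regulators differed in how steady they were. Tfam, which packages mitochondrial DNA and starts its transcription, had a coefficient of variation over the 15 mice of 9.05%, and its highest mouse was 1.39-fold above its lowest. Tfb2m, the partner that melts the mitochondrial promoter, had a coefficient of variation of 9.38%. The same measure was 25.5% for Ppargc1a, 29.7% for Esrrg and 45.8% for Pprc1, the most variable, whose highest mouse was 3.94-fold above its lowest.

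Libraries held 19395125 to 30699216 counts, from 151 to 3614 of them on a single regulator in a single mouse. Low Control mouse D9 and High Run mouse D62 stood apart on the first principal component of the transformed counts, at -76.0 and -49.3 with the other 13 mice between -14.4 and 19.7. Levels of genes are given as CPM, counts scaled to library size after TMM normalization, but the marker sums here were scaled to library size alone. On that scale both mice had the lowest summed level of 8 fast-myofibre markers, 126121 and 130399 CPM, against 141331 to 173025 CPM in the other 13 mice. Fast-myofibre markers remained far above all other lists in every library. The TMM factor was 0.930 for D9 and 1.05 for High Run mouse D49, whose sum was 141505 CPM. With these factors D9 would no longer lie below D49, so the low sum of D9 depends on the scaling. In other markers the 2 mice differed, since D62 had the highest summed slow-myofibre and Schwann-cell markers of all mice, 4241 and 381 CPM, and D9 had 1500 and 126 CPM. Summed macrophage markers, 7 genes, were 90.5 to 196 CPM in Low Control and 173 to 225 CPM in Low Run mice, and 79.8 to 131 CPM in High Control and 118 to 266 CPM in High Run mice, and their part in the results was not tested. Summed neutrophil markers were 407 CPM in Low Run mouse D68 and at most 52.4 CPM in all other mice. The highest summed erythroid markers were 3869 CPM in High Run mouse D53, followed by 2475 CPM in Low Control mouse D11. Of 3 brown-adipocyte markers, which could carry a Ppargc1a signal of their own, 1 passed the filter and their sum was at most 3.91 CPM. Results are therefore given with all mice and without D9 and D62.

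No regulator passed an FDR of 0.1 in any of the 5 comparisons, by edgeR's quasi-likelihood F-test with Benjamini-Hochberg adjustment over all 16920 genes. That was true of every gene tested, so the background share called was 0% for Low Run against Low Control, for High Run against High Control, for the Frailty × Run interaction, for High Control against Low Control and for High Run against Low Run. DESeq2's Wald test called 9 genes in the Low and 15 in the High running comparison and 0 in the other 3 comparisons, none of them a regulator. Before adjustment, at p under 0.05, edgeR gave 2 of the 10 regulators in the Low running comparison, both lower, where the share of all genes was 13.4%. It gave 0 regulators in the High running comparison (5.18% of genes), 1 in the interaction (7.93%), 1 in High Control against Low Control (5.86%) and 0 in High Run against Low Run (2.51%). With 10 regulators these counts are near the shares of all genes.

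The log2 fold changes of the 10 regulators ran from -0.76 to 0.16 in the Low running comparison, with 7 below 0 and a median of -0.18, where the median of all genes was 0.02. They ran from -0.22 to 0.36 in the High running comparison, with 6 below 0 and a median of -0.04, beside 0.05 for all genes. The median of the interaction was 0.08, beside 0.03. Between Control groups the median was -0.15, beside -0.02, and between Run groups -0.00172, beside 0.01. Exact two-sided permutation tests used log2 CPM. With 4 mice in each group there are 70 ways to divide them, with 3 and 4 mice 35 ways, and for the interaction 2450, so that within a frailty group the exact test could not go below p = 0.0286. For the interaction, Run and Control labels were exchanged within each frailty group. Its exact p therefore refers to no running effect in either group, and not to equal effects in both.

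**Figure D2:**
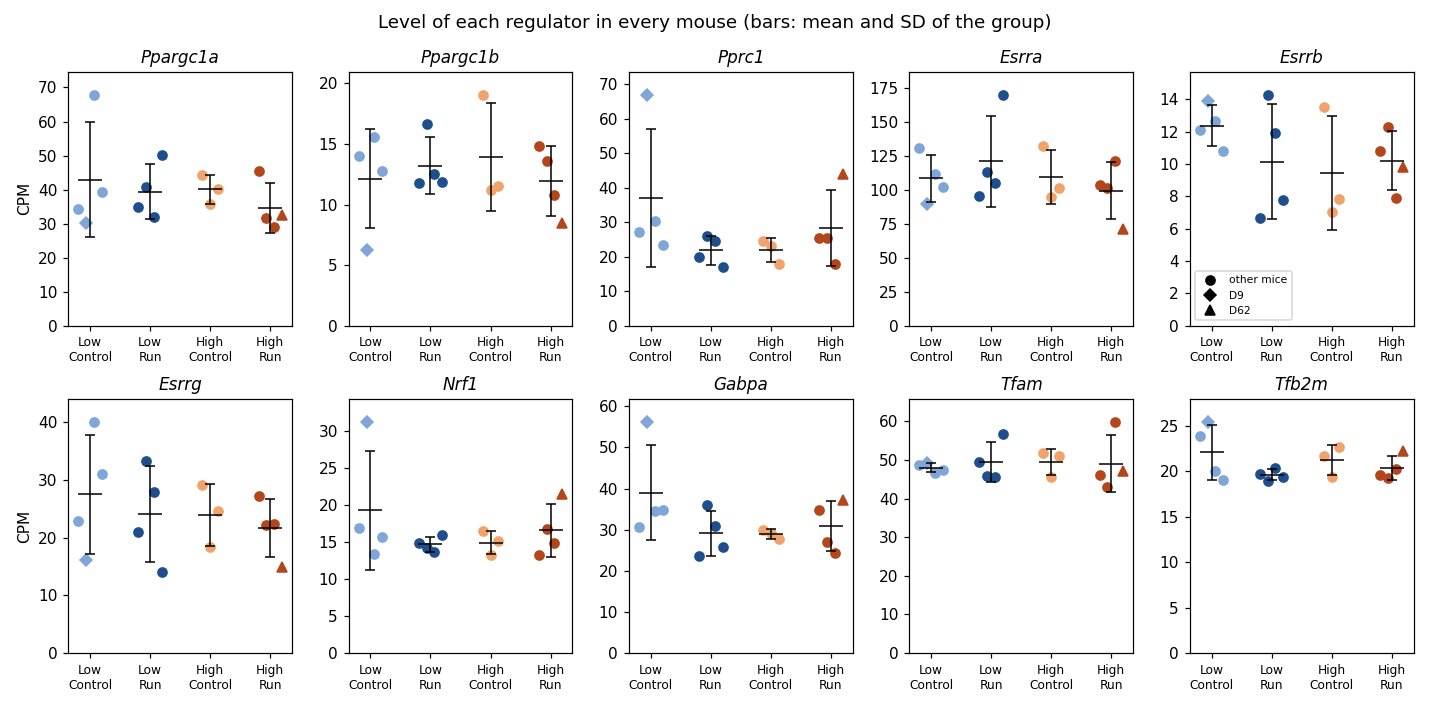
CPM of each regulator in every mouse by group, with bars for the mean and SD of the group (n = 4, 4, 3 and 4) and a vertical axis from 0. The diamond (D9) and the triangle (D62) are the highest points of Pprc1, Nrf1 and Gabpa and the lowest of Ppargc1b, while Tfam and Tfb2m stay within a narrow band.

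Among the coactivators, Ppargc1a (ENSMUSG00000029167, chr5:51454250-51567726) did not move beyond the spread between mice with running or frailty. Its levels were 34.3, 30.3, 67.8 and 39.4 CPM in Low Control and 34.8, 40.8, 32.0 and 50.1 CPM in Low Run mice. They were 44.3, 35.8 and 40.2 CPM in High Control and 45.5, 31.6, 29.0 and 32.5 CPM in High Run mice. Every pair of groups overlapped, and the highest value of the series was that of Low Control mouse D11. The log2 fold change with running was -0.12 ± 0.23 (SE) in Low mice (adjusted p = 0.811, exact permutation p = 0.857) and -0.21 ± 0.25 in High mice (adjusted p = 0.965, exact permutation p = 0.286). An interval of 2 standard errors ran from -0.58 to 0.33 in Low and from -0.71 to 0.28 in High mice, so a rise of 2-fold (log2 of 1) lay outside both. Without D11 the Low value was 0.18, and without D9 and D62 it was -0.27 ± 0.23. The interaction was -0.09 ± 0.34 (adjusted p = 0.942, exact permutation p = 0.659).

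Ppargc1b, which sustains mitochondrial genes in resting muscle, was 14.0, 6.25, 15.6 and 12.7 CPM in Low Control and 11.8, 16.7, 12.5 and 11.8 CPM in Low Run mice. It was 19.0, 11.2 and 11.5 CPM in High Control and 14.9, 13.6, 10.8 and 8.47 CPM in High Run mice. The lowest 2 values of the series belonged to D9 and D62, and the groups overlapped throughout. Its log2 fold change with running was 0.12 ± 0.26 in Low (adjusted p = 0.844) and -0.22 ± 0.28 in High mice (adjusted p = 0.965). Without D9 and D62 the Low value was -0.10 ± 0.20 and the High value -0.10 ± 0.21.

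Pprc1 (ENSMUSG00000055491, chr19:46044886-46072915), the PGC-1 relative known to respond to serum and metabolic stress, had the largest differences among the regulators, and they rested on D9 and D62. It was 27.3, 66.9, 30.5 and 23.5 CPM in Low Control and 19.9, 26.1, 24.6 and 17.0 CPM in Low Run mice. It was 24.7, 23.2 and 18.0 CPM in High Control and 25.6, 25.5, 18.0 and 44.0 CPM in High Run mice. The values 66.9 and 44.0 CPM were those of D9 and D62, and the other 13 mice lay between 17.0 and 30.5 CPM. Running went with a log2 fold change of -0.76 ± 0.31 in Low mice (0.591-fold, adjusted p = 0.358, exact permutation p = 0.0857) and of 0.36 ± 0.34 in High mice (adjusted p = 0.958, exact permutation p = 0.314). The interaction was 1.12 ± 0.46 (adjusted p = 0.600, exact permutation p = 0.0588), and High Control against Low Control gave -0.75 ± 0.34 (adjusted p = 0.704, exact permutation p = 0.171). Without D9 and D62 these values were -0.32 ± 0.18 in Low and 0.06 ± 0.19 in High mice, 0.38 ± 0.26 for the interaction and -0.31 ± 0.19 between Control groups.

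**Figure D3:**
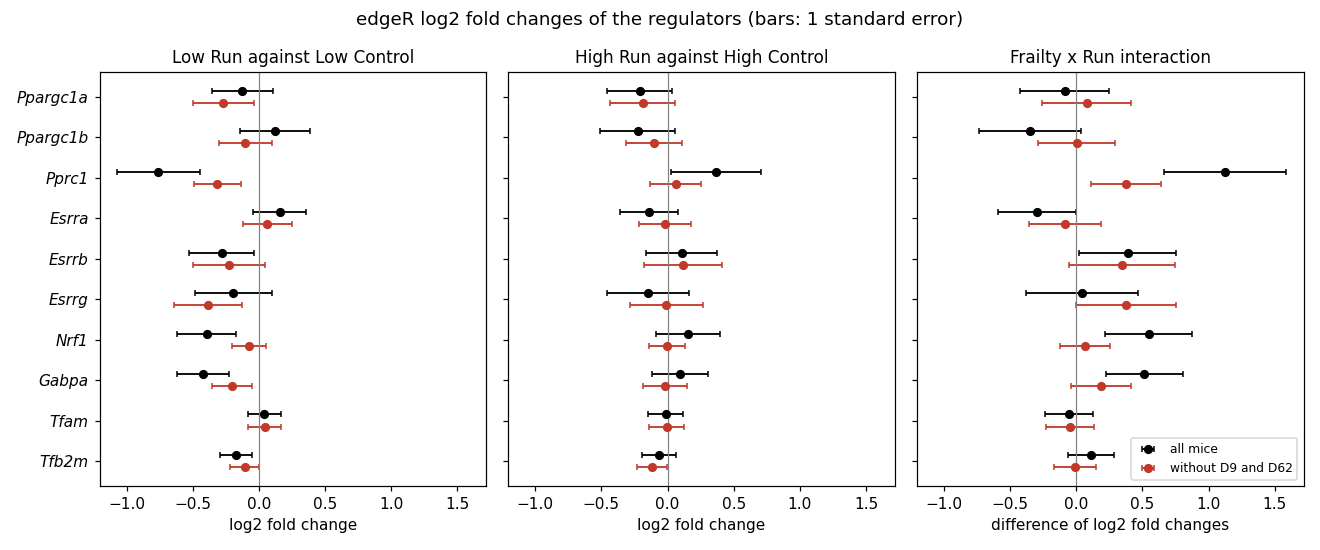
edgeR log2 fold change of each regulator, with 1 standard error, for running in Low mice, running in High mice and the Frailty × Run interaction, with all mice (black) and without D9 and D62 (red). The black Pprc1 points at -0.76 and 1.12 move to -0.32 and 0.38 without the 2 mice.

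The estrogen-related receptors are orphan nuclear receptors that work with PGC-1 at genes of oxidative metabolism. Esrra (ENSMUSG00000024955) was 130.9, 89.7, 111.7 and 102.4 CPM in Low Control and 95.5, 113.5, 105.4 and 170.0 CPM in Low Run mice. It was 132.6, 95.1 and 101.7 CPM in High Control and 104.1, 101.7, 121.3 and 71.2 CPM in High Run mice. The high point was Low Run mouse D68 and the low point D62, and no pair of groups separated. Its log2 fold change was 0.16 ± 0.20 in Low (adjusted p = 0.719) and -0.14 ± 0.22 in High mice (adjusted p = 0.973), with an interaction of -0.30 ± 0.30 (adjusted p = 0.720). These were 0.06 ± 0.19, -0.02 ± 0.20 and -0.08 ± 0.27 once D9 and D62 were left out, and without D68 alone the interaction was -0.09.

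Esrrg, the receptor most tied to slow oxidative fibres, ranged from 16.2 to 40.0 CPM in Low Control, 14.1 to 33.4 in Low Run, 18.4 to 29.1 in High Control and 14.9 to 27.2 CPM in High Run mice. Its log2 fold changes with running were -0.19 ± 0.29 in Low and -0.15 ± 0.31 in High mice (adjusted p = 0.760 and 0.977), and -0.39 ± 0.26 and -0.01 ± 0.28 without D9 and D62. Esrrb, better known from embryonic stem cells, ranged from 10.8 to 13.9 CPM in Low Control, 6.64 to 14.3 in Low Run, 7.05 to 13.5 in High Control and 7.92 to 12.3 CPM in High Run mice. Low Control mice were the tightest of the 4 groups for Esrrb, and its log2 fold change was -0.28 ± 0.25 in Low (adjusted p = 0.582) and 0.11 ± 0.27 in High mice (adjusted p = 0.982), with an interaction of 0.39 ± 0.36 (adjusted p = 0.704). With 1 mouse left out the Low value ran from -0.50 (without D61) to -0.12 (without D57).

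The nuclear respiratory factors followed D9 and D62. Nrf1 (ENSMUSG00000058440, chr6:30047988-30153458), which binds promoters of respiratory genes, was 16.9, 31.2, 13.4 and 15.7 CPM in Low Control and 14.9, 14.2, 13.7 and 15.9 CPM in Low Run mice. It was 16.4, 13.2 and 15.1 CPM in High Control and 13.2, 16.7, 14.8 and 21.5 CPM in High Run mice. The 31.2 and 21.5 CPM of D9 and D62 stood above a band of 13.2 to 16.9 CPM that held the other 13 mice. The log2 fold change in Low mice was -0.40 ± 0.22 (adjusted p = 0.418, exact permutation p = 0.314), and without both mice -0.07 ± 0.13.

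Gabpa (ENSMUSG00000008976, chr16:84834925-84863779) was 30.7, 56.1, 34.5 and 34.8 CPM in Low Control and 23.6, 36.1, 30.8 and 25.9 CPM in Low Run mice. It was 29.9, 29.2 and 27.7 CPM in High Control and 34.8, 27.1, 24.4 and 37.2 CPM in High Run mice. High Control mice all lay below Low Control mice, by less than 1 CPM at the nearest pair. Gabpa was the only regulator whose groups did not overlap, in High Control against Low Control, where this held for 10.4% of all genes. The log2 fold change there was -0.43 ± 0.21 (adjusted p = 0.704, exact permutation p = 0.0571), and -0.21 ± 0.17 without D9 and D62. No regulator separated Low Run from Low Control (6.93% of genes did), High Run from High Control (7.07%) or High Run from Low Run (1.5%). With running Gabpa gave -0.42 ± 0.20 in Low mice (adjusted p = 0.368, exact permutation p = 0.200), which became -0.20 ± 0.15 without D9 and D62. On its other strand Gabpa shares 6.98% of its exon bases with Atp5j, and the authors counted reads by strand.

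Tfam and Tfb2m were the flattest. Tfam (ENSMUSG00000003923) was 48.8, 49.2, 46.7 and 47.3 CPM in Low Control and 49.5, 45.8, 45.7 and 56.6 CPM in Low Run mice. It was 51.9, 45.7 and 51.0 CPM in High Control and 46.0, 43.1, 59.8 and 47.3 CPM in High Run mice. The highest values belonged to 1 Run mouse of each frailty group, D68 and D53. The log2 fold change with running was 0.04 ± 0.12 in Low and -0.01 ± 0.13 in High mice (adjusted p = 0.893 and 0.995), with intervals of 2 standard errors from -0.20 to 0.29 and from -0.28 to 0.25. Tfb2m ranged from 19.1 to 25.4 CPM in Low Control, 18.9 to 20.3 in Low Run, 19.3 to 22.6 in High Control and 19.3 to 22.2 CPM in High Run mice, with log2 fold changes of -0.17 ± 0.12 in Low and -0.06 ± 0.13 in High mice (adjusted p = 0.485 and 0.977).

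D9 and D62 belong to opposite groups, 1 Low Control and 1 High Run, and shared part of their pattern among the regulators. Both lay above all 13 other mice in 3 regulators, Pprc1, Nrf1 and Gabpa, where 13.4% of all genes did so, and below all others in 2, Ppargc1b and Esrra, where 11.5% did. In D9, Pprc1 was 2.72-fold, Nrf1 2.09-fold and Gabpa 1.88-fold the median of the 13 other mice, and in D62 1.79-fold, 1.44-fold and 1.24-fold. Ppargc1b was 0.491-fold and 0.665-fold. Tfam stayed at 1.04-fold in D9 and 1.00-fold in D62. After each mouse's trend on exon length and GC content was removed, a setting chosen after seeing the data, the same 3 regulators stayed above, and Ppargc1b but not Esrra stayed below.

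The regulators did not share 1 direction across mice. Of the 45 pairs of regulators, 11 had Pearson's r of log2 CPM above 0.5 and 5 below -0.5 over the 15 mice, given as a description since mice share groups, and 14 pairs changed sign without D9 and D62. Pprc1 and Gabpa went together with all mice (r = 0.90, Spearman's rho = 0.80, n = 15) and over the other 13 (r = 0.74). Pprc1 and Nrf1 did so only with D9 and D62 (r = 0.78 with, -0.19 without). Ppargc1b instead went with Esrrb over the 13 mice (r = 0.84) and less over all 15 (r = 0.25). Ppargc1a and Esrra had r = 0.41 over 15 and 0.29 over 13 mice.

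Nuclear genes of the respiratory chain, which these factors are known to raise, were summarised as the mean log2 CPM of 95 genes. These were taken by the symbol prefixes of complex I to V subunits, and 8 of them are complex I assembly factors. The prefixes for complex II also match its assembly factors, which were not counted apart. Relative to the mean of all mice this value was lowest in D9 at -0.41 and D62 at -0.34, and highest in High Run mouse D53 and Low Run mouse D68, both at 0.33. Pprc1 was lower where the subunits were higher (r = -0.92, rho = -0.84, n = 15, and r = -0.84 over 13 mice), and so was Gabpa (r = -0.85, rho = -0.79, and -0.72). D53 and D68 were the 2 highest mice for Tfam too, which was higher with the subunits (r = 0.62, rho = 0.50, and r = 0.91, rho = 0.63 over 13 mice). So was Esrra (r = 0.73, rho = 0.53, and r = 0.57, rho = 0.29 over 13 mice). D68 also had the highest summed neutrophil markers and D53 the highest summed erythroid markers, and the part of these cells was not tested. For Esrrb r was -0.49 over 15 and -0.52 over 13 mice. The sign of r turned without D9 and D62 for Nrf1 (-0.62 to 0.26), Ppargc1b (0.46 to -0.41), Esrrg (0.11 to -0.56) and Ppargc1a (0.18 to -0.16), and r for Tfb2m went from -0.50 to -0.01. The 95 genes are short, with a median exon length of 1675 bases against 3833 for all genes tested and 6284 for Pprc1. Mice D53, D57 and D68 had slopes of log2 CPM on log2 exon length of -0.097, -0.093 and -0.087, the steepest negative ones. D9 had the steepest positive slope, 0.098, while that of D62 was -0.036. After the trend on length and GC was removed, r over 15 and 13 mice was -0.81 and -0.57 for Pprc1, -0.70 and -0.47 for Gabpa, 0.49 and 0.87 for Tfam and 0.81 and 0.75 for Esrra.

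**Figure D4:**
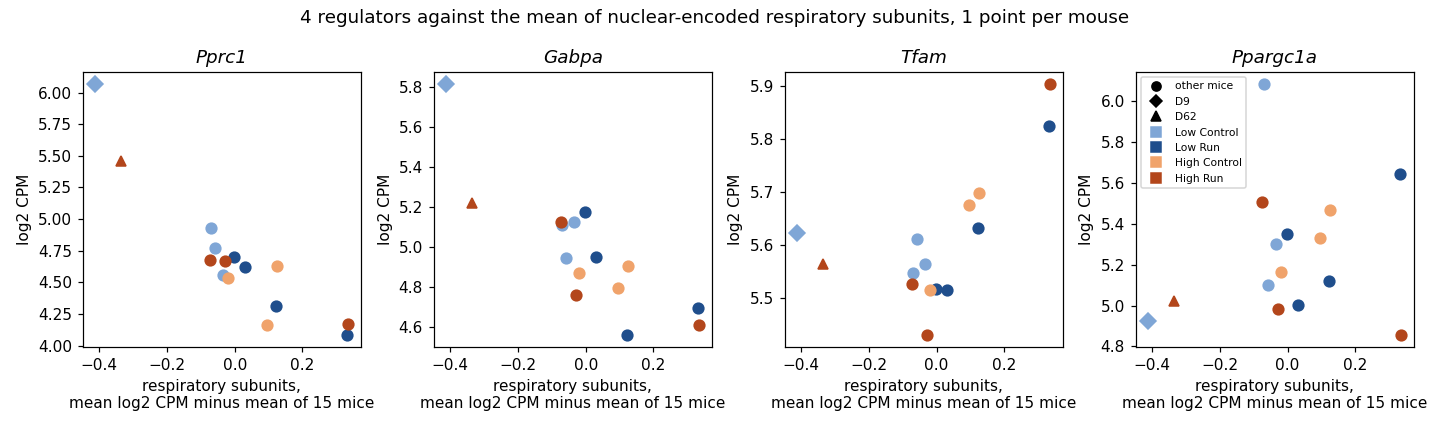
Log2 CPM of Pprc1, Gabpa, Tfam and Ppargc1a against the mean of 95 respiratory-chain genes (log2 CPM minus the mean of 15 mice), 1 point per mouse, coloured by group. Pprc1 and Gabpa fall and Tfam rises from left to right, while Ppargc1a has r = 0.18.

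Over all tested genes with a mean of at least 1 CPM, 13763 in number, those most like Ppargc1a across the 15 mice were Plat (r = 0.78), Gapdh (0.75) and Ccdc137 (0.75). Those most like Esrra were Rmdn1 (0.90), Mtfp1 (0.89) and Dmac2 (0.88). Those most like Gabpa were Foxn2 (0.97), Gcc1 (0.96) and Suz12 (0.96). Without D9 and D62 these values lay between 0.74 and 0.92.

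Of 29 genes that act on PGC-1, such as AMPK subunits, calcium-dependent kinases and the deacetylase Sirt1, 0 passed the FDR of edgeR in any comparison. At unadjusted p under 0.05, 1 was higher and 4 lower in the Low running comparison, with a list median of -0.13, and 0 and 1 in the High one, with a median of -0.03. The shares of all genes under this p were 13.4% in Low mice, 5.18% in High mice and 7.93% in the interaction, against which the counts of this list and the next 3 are to be read. Those shares were 7.33%, 6.85% and 4.42% when D9 and D62 were left out, and then 4 genes of the list in Low and 2 in High mice were under this p. Genes named from the 4 lists were chosen for such a p, so their values and exact tests are descriptions. Mapk11, a p38 kinase, was the higher one. It was 0.993 to 2.08 CPM in Low Control and 2.46 to 3.24 CPM in Low Run mice, a log2 fold change of 0.74 ± 0.25 (adjusted p = 0.358, exact permutation p = 0.0286, the smallest possible), and the groups did not overlap. In High mice Mapk11 gave 0.52 ± 0.27 (adjusted p = 0.956), and the interaction was -0.23 ± 0.36 (adjusted p = 0.834). Without D9 and D62 Mapk11 gave 0.56 ± 0.22 in Low and 0.61 ± 0.23 in High mice. Both were under an unadjusted p of 0.05 (adjusted p = 0.650 and 0.647). Sirt1, which deacetylates PGC-1α, gave -0.77 ± 0.27 in Low mice and -0.45 ± 0.19 without D9 and D62, and Flcn, a folliculin that holds AMPK signalling down, -0.73 ± 0.26 and -0.43 ± 0.16. Mef2d, a muscle factor at the Ppargc1a promoter, gave -0.52 ± 0.21 and -0.30 ± 0.16 without D9 and D62, and Fnip1, a partner of folliculin, -0.40 ± 0.17 and -0.39 ± 0.19, both no longer under an unadjusted p of 0.05 (each of these 4 had an adjusted p of 0.358 or 0.359 with all mice). In High mice Sirt1, Flcn, Mef2d and Fnip1 gave -0.04 ± 0.29, -0.06 ± 0.28, -0.01 ± 0.22 and -0.03 ± 0.19. Without D9 and D62 these High values were -0.29 ± 0.20, -0.35 ± 0.17, -0.17 ± 0.17 and -0.06 ± 0.20. Their interactions were 0.73 ± 0.40, 0.67 ± 0.39, 0.51 ± 0.30 and 0.37 ± 0.26. Without both mice the interactions were 0.17 ± 0.28, 0.08 ± 0.24, 0.13 ± 0.23 and 0.34 ± 0.28. Prkab2, an AMPK subunit, was lower in High Run mice (255 to 450 CPM) than in all High Control mice (463 to 615 CPM), at -0.47 ± 0.21 (adjusted p = 0.956), and -0.33 ± 0.18 without D62 and D9. In Low mice Prkab2 fell too, by -0.29 ± 0.19, and by -0.36 ± 0.17 without both mice, only then under an unadjusted p of 0.05. Its interaction was -0.19 ± 0.29, and 0.04 ± 0.24 without them.

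Of 20 partner transcription factors, 19 were tested and 0 passed the FDR of edgeR, and their median was -0.30 in the Low and 0.12 in the High running comparison. At unadjusted p under 0.05, 4 were lower in the Low comparison, 0 genes were under it in the High one and 4 had a positive interaction, and without D9 and D62 these counts were 2, 1 and 2. Rxra, the partner of PPAR receptors, gave -0.46 ± 0.16 in Low and -0.37 ± 0.18 in High mice (adjusted p = 0.358 and 0.956), and 0.09 ± 0.24 for the interaction. Without D9 and D62 Rxra gave -0.31 ± 0.14 in Low and -0.46 ± 0.15 in High mice (adjusted p = 0.650 and 0.571). Ppara, the fatty acid receptor, gave -0.88 ± 0.35 in Low and 0.45 ± 0.38 in High mice, with an interaction of 1.33 ± 0.52 (adjusted p = 0.600, exact permutation p = 0.0396) and 1.30 ± 0.57 without D9 and D62. Foxo3 and Foxo1, factors of the fasting response, had interactions of 1.33 ± 0.53 and 2.13 ± 0.96 (adjusted p = 0.600 for each), which fell to 0.36 ± 0.23 and 0.06 ± 0.45 without the 2 mice. Sp1, a general factor, had an interaction of 0.83 ± 0.34 (adjusted p = 0.600, exact permutation p = 0.0429), and 0.35 ± 0.21 without them.

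Of 19 genes that transcribe, copy or maintain mitochondrial DNA, 0 passed the FDR of edgeR, with medians of -0.01 in Low and -0.09 in High mice. At unadjusted p under 0.05, 1 was higher and 2 were lower in Low mice, 0 in High mice, and 1 had a negative interaction, which became 2, 1 and 1 genes without D9 and D62. Tfb1m, the relative of Tfb2m that methylates mitochondrial ribosomal RNA, stood apart from Tfb2m. It was 6.86, 4.76, 7.96 and 8.57 CPM in Low Control and 10.3, 10.8, 10.4 and 11.5 CPM in Low Run mice. It was 9.19, 11.2 and 12.1 CPM in High Control and 9.88, 8.90, 11.0 and 7.56 CPM in High Run mice. All Low Run mice and all High Control mice lay above all Low Control mice, and the High groups overlapped. Of all genes, 6.93% did not overlap in Low Run against Low Control and 10.4% in High Control against Low Control. The log2 fold change was 0.61 ± 0.18 in Low mice (1.53-fold, adjusted p = 0.358, exact permutation p = 0.0286) and -0.22 ± 0.19 in High mice (adjusted p = 0.958), and the interaction was -0.83 ± 0.26 (adjusted p = 0.600, exact permutation p = 0.00490). Without D9 and D62 these were 0.45 ± 0.14, -0.13 ± 0.14 and -0.59 ± 0.20. Polrmt, the mitochondrial RNA polymerase, gave -0.54 ± 0.21 and Polg, the mitochondrial DNA polymerase, -0.35 ± 0.16 in Low mice (adjusted p = 0.358 and 0.365), and -0.28 ± 0.13 and -0.27 ± 0.16 without both mice. In High mice Polrmt gave -0.19 ± 0.22 (adjusted p = 0.965). Without both mice it gave -0.36 ± 0.14 there (adjusted p = 0.648), the 1 gene of the list then under an unadjusted p of 0.05. Polg gave 0.06 ± 0.17 in High mice, and 0.03 ± 0.17 without both mice. It separated the same groups as Tfb1m in the opposite direction. Low Control mice, at 50.6 to 65.2 CPM, all lay above Low Run mice (34.4 to 50.3 CPM) and High Control mice (44.2 to 46.4 CPM).

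Of 27 known PGC-1 and estrogen-related receptor targets in muscle, 0 passed the FDR of edgeR, and at unadjusted p under 0.05 there were 2 lower in Low mice, 1 lower in High mice and 0 in the interaction, and 0, 2 and 0 without D9 and D62. Their median was 0.00138 in the Low and -0.18 in the High running comparison, against 0.02 and 0.05 for all genes. Pdk4, the kinase that shuts off pyruvate oxidation, ranged from 130 to 6837 CPM in Low Control and 516 to 765 CPM in Low Run mice, so that its -2.04 ± 0.92 (adjusted p = 0.363) became -0.91 ± 0.63 without D9 and D62. Cpt1b, which admits fatty acids to mitochondria, gave -0.52 ± 0.22 in Low mice (adjusted p = 0.359) and -0.44 ± 0.23 without D9 and D62, and Idh3a, a citric acid cycle enzyme, -0.42 ± 0.19 in High mice (adjusted p = 0.956) and -0.25 ± 0.12 without them. In High mice Cpt1b gave -0.18 ± 0.24, and -0.30 ± 0.25 without both mice. Idh3a gave 0.07 ± 0.18 in Low mice, and -0.02 ± 0.11 without both mice. For Idh3a all High Run mice (356 to 708 CPM) lay below all High Control mice (713 to 823 CPM).

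**Figure D5:**
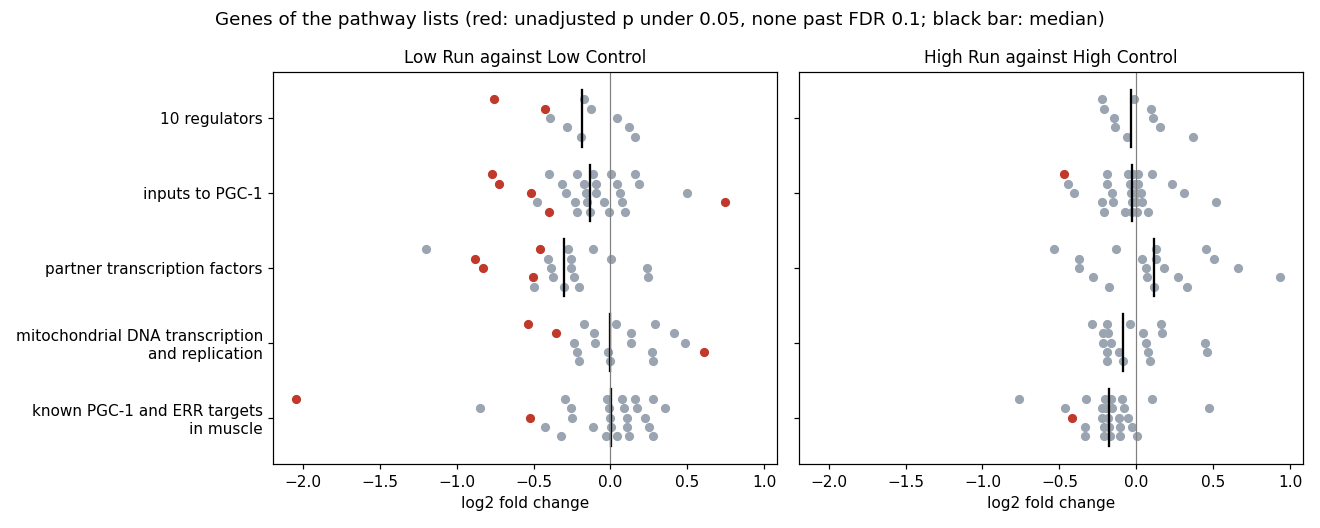
Log2 fold change with running in Low mice (left) and High mice (right) for the 10 regulators and the genes of 4 pathway lists, 1 point per gene, red for unadjusted p under 0.05 and a black bar for the list median. Medians lie between -0.30 and 0.12, and no point passes the FDR.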

How the data were processed

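Gastrocnemius RNA of 15 mice was sequenced after poly(A) selection. The authors aligned the reads to mm10 with STAR and deposited whole-number counts of uniquely aligned proper pairs per non-mitochondrial Ensembl gene, counted by strand with featureCounts and not normalized. The submitters' processing notes name STAR 2.7.9a, Subread 2.0.3 and DESeq2 1.32.0. The authors also deposited variance-stabilized values, close to log2, used here for the principal components and as an alternative.

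The main tests used edgeR 4.0.16 under R 4.3.3 (filterByExpr, TMM, quasi-likelihood F-test, 1 mean per group over all 15 mice, FDR of 0.1). The fold changes are edgeR's with no prior count, and log2 CPM used a prior count of 0.5. RPKM used the union of exon lengths in GENCODE M21 (GRCm38), which named 55190 of the 55450 genes. limma 3.58.1 and DESeq2 1.42.0 gave alternatives. Totals were 19395125 to 30699216 counts per mouse. For the 21 pairs of mice within groups, chi-square divided by its degrees of freedom was 15.7 to 191, so none of these pairs was a duplicate, and pairs across groups were not compared. The labels give no sequencing batch. In simulated counts with 200 of 16599 genes changed by a log2 of 2 in High Run mice, edgeR recovered 195 in the High running comparison with 19 false calls, and made 0 calls in the unchanged Low comparison. That change is larger than any of a regulator, the largest being -0.76 with running and 1.12 in the interaction. The simulation held no libraries set apart like D9 and D62. Recovery of smaller changes was not tested.

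The members, pathway lists and marker lists were chosen with earlier results of these data known, so their counts are descriptions. Named beyond the 10 regulators were at most 6 genes per pathway list with an unadjusted p under 0.05 in either running comparison or the interaction, those with the smallest p first, and the 3 genes most like each of Ppargc1a, Esrra and Gabpa. The setting without D9 and D62 and the correlations after removal of the length and GC trend (loess, span 0.3) were chosen after seeing the data. Alternatives were DESeq2, size factors by RLE or upper quartile, dropping the filter, a floor of 10 counts for each mouse, fitting the compared groups alone, voom with quality weights, length and GC offsets, the deposited transformed values, and each mouse left out. Proteins were not analysed here.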

Additional observations from a re-analysis of the deposited data

Results flagged for a closer look

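Among the 10 regulators and 17 other named genes, each group of 4 mice was checked for a mouse whose gap to its nearest neighbour took most of the group's range, over 81 groups, where chance flags about 5% of groups. Low Control mouse D9 was set off by Pprc1 at 66.9 CPM, Gabpa at 56.1 CPM, Sp1 at 48.3 CPM and Polg at 65.2 CPM. High Run mouse D62 was set off by Foxo1 at 332 CPM, Foxo3 at 102.9 CPM and Pdk4 at 4684 CPM. Ppargc1b in Low Run mouse D61 at 16.7 CPM and Polg in High Run mouse D53 at 34.1 CPM were the remaining ones. Their causes were not tested.

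The exact permutation p of the interaction was under 0.05 for 3 of the 27 genes, Tfb1m (p = 0.00490, lower interaction of -0.83 on the log2 scale), Ppara (p = 0.0396, 1.33) and Sp1 (p = 0.0429, 0.83). All 3 are among the 17 genes that were named for a small p in a running comparison or in the interaction itself, so these p-values are descriptions and no test of a difference. When D9 and D62 were left out, the interactions were -0.59 ± 0.20 for Tfb1m, 1.30 ± 0.57 for Ppara and 0.35 ± 0.21 for Sp1. The adjusted p of edgeR was 0.600 for each of these 3, so none passed the FDR. No regulator of the 10 was among them, the nearest being Pprc1 at an exact permutation p of 0.0588.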

How the results depend on the processing

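No regulator passed the FDR of 0.1 under any alternative run. No paired analysis was possible because the groups share no replicate numbers. DESeq2, RLE size factors, dropping the filter, a floor of 10 counts for each mouse and fitting the compared groups alone turned no direction of a regulator. Over all genes, calls did change: without a count filter edgeR called 86 in the Low and 19 in the High running comparison, 4 in the interaction and 6 between Run groups, and voom with quality weights called 45 in the High running comparison. The causes were not tested.

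The number of regulators with an unadjusted p under 0.05 in Low Run against Low Control, 2 in the report, was 1 with upper-quartile normalization, with at least 10 counts and with only the groups compared, and 0 with voom and without D9 and D62. In High Control against Low Control, 1 in the report, it was 2 without a filter, and 0 with only the groups compared, with length and GC offsets and without D9 and D62. In the interaction, 1 in the report, it was 0 with voom and without D9 and D62. With each mouse left out, it ran from 0 (without D9) to 3 (without D11) in the Low comparison, 0 (without D9) to 2 in the interaction and 0 (without D9) to 2 between Control groups. Regulators whose groups did not overlap then numbered 1 to 3 between Control groups (3 without D23), 0 to 1 in Low and 0 to 1 in High mice, where 13.9% to 19.7%, 8.56% to 13.3% and 10.0% to 16.2% of all genes did not overlap.

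Directions turned only for values that had not passed any threshold. With upper-quartile normalization the log2 fold change was -0.0027 for Esrrb between Run groups and 0.0019 for Tfb2m between Control groups, and with length and GC offsets -0.029 for Esrrb between Run groups. With voom it was -0.059 for Esrra, -0.042 for Ppargc1b and 0.030 for Tfb2m between Control groups, -0.043 for Gabpa and -0.0069 for Tfb2m between Run groups, -0.028 for Ppargc1b in Low mice, and 0.13 for Ppargc1a, 0.025 for Ppargc1b and -0.037 for Tfb2m in the interaction. Without D9 and D62, chosen after seeing the data, it was -0.073 for Esrra, -0.024 for Ppargc1b and 0.0089 for Tfb2m between Control groups, -0.017 for Gabpa and -0.0057 for Nrf1 in High mice, -0.022 for Gabpa and 0.0027 for Tfam between Run groups, -0.10 for Ppargc1b in Low mice, and 0.081 for Ppargc1a, 0.0037 for Ppargc1b and -0.0068 for Tfb2m in the interaction.

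With each mouse left out in turn, Low running values ran from -0.061 to 0.26 for Esrra, -0.40 to 0.035 for Esrrg, -0.27 to 0.18 for Ppargc1a, -0.10 to 0.26 for Ppargc1b and -0.040 to 0.066 for Tfam. High running values ran from -0.25 to 0.016 for Esrra, -0.069 to 0.45 for Esrrb, -0.31 to 0.014 for Esrrg, -0.017 to 0.19 for Gabpa, -0.0061 to 0.24 for Nrf1, -0.36 to 0.069 for Ppargc1b and -0.12 to 0.036 for Tfam. Interactions ran from -0.19 to 0.25 for Esrrg, -0.39 to 0.053 for Ppargc1a and -0.16 to 0.019 for Tfam. Between Control groups they ran from -0.14 to 0.12 for Esrra, -0.39 to 0.031 for Esrrg, -0.24 to 0.20 for Ppargc1a, -0.096 to 0.33 for Ppargc1b and -0.12 to 0.0088 for Tfb2m, and between Run groups from -0.15 to 0.22 for Esrrb, -0.34 to 0.042 for Esrrg, -0.022 to 0.20 for Gabpa and -0.12 to 0.058 for Tfam.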
